A study of Mus musculus with 9 samples.

Results

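The 10 genes described here encode the enzymes and helpers that hydroxylate, fold, trim and crosslink collagen. They were chosen by name, as all probe sets (groups of probes that read 1 transcript) whose platform annotation gives exactly 1 gene symbol and whose symbol is Crtap, P4ha1, P4ha2, Plod1, Plod2, Plod3, Serpinh1, Pcolce, Lox or Loxl1. All 10 genes were measured, by 16 probe sets, among 12393 genes and 22690 probe sets in all. The study compared 3 mouse cell lines with 3 Affymetrix arrays each. SV5 NN4 is a stable NIH 3T3 clone that carries SV40 large T antigen plus an added N-ras gene of wild-type sequence, SV5 is a stable NIH 3T3 clone with SV40 large T antigen alone, and NIH 3T3, an established mouse embryo fibroblast line, is the parent with neither. All 3 lines grew in medium with 10% calf serum. With 1 clone for each set of added genes, an effect of the added genes and a difference between clones cannot be told apart. The sources used here do not name the promoter of the added N-ras.

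Collagen chains are modified while they are still in the endoplasmic reticulum. Prolyl 4-hydroxylases make the hydroxyproline that holds the triple helix together at body temperature, a prolyl 3-hydroxylase complex acts on few sites and assists folding, and lysyl hydroxylases prepare lysines for sugars and for crosslinks. Hsp47, the product of Serpinh1, binds the folded helix and escorts it out. Outside the cell the propeptides are cut off and lysyl oxidases join neighbouring molecules. Fibroblasts do all of this at a high rate.

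The 10 genes did not move together. Crtap, the helper subunit of the prolyl 3-hydroxylase complex, stood lower in SV5 NN4, by 6.17-fold against SV5 and by 4.12-fold against NIH 3T3. Lox, which encodes lysyl oxidase, was highest in SV5 and stood 2.35-fold lower in SV5 NN4 than SV5. Its SV5 NN4 and NIH 3T3 arrays overlapped, and it was not called between these lines. The call of Crtap against SV5 held in every setting tried, while that of Crtap against NIH 3T3 (adjusted p = 0.12) and that of Lox (adjusted p = 0.24) were lost when replicate numbers were not paired. The Crtap call against NIH 3T3 was also lost with only these lines in the fit, and the Lox call when any 1 array of SV5 NN4 or SV5 was left out. The other 8 genes passed the test in no comparison at their brightest probe set, and none of the 10 passed between SV5 and NIH 3T3. The highest difference among those 8 between SV5 NN4 and SV5 was that of the lysyl hydroxylase gene Plod2, at 0.69 on the log2 scale with a 95% interval of 0.10 to 1.27 (adjusted p = 0.295, limma).

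Values are array intensities after the authors' processing, and differences are between means of log2(intensity + 1), so that those of dim probe sets are slightly understated. Equal replicate numbers were treated as a block in limma, and a gene was called at an adjusted p under 0.05 over all probe sets. Each gene is represented by its brightest probe set, that with the highest mean log2 level. Array medians lay between 56.2 and 62.4, the upper quartiles between 165.2 and 239.7, and probe sets for bacterial transcripts, the floor, between 3.18 and 4.25 on the log2 scale. At their brightest probe sets all 10 genes lay above that floor on 9 of 9 arrays. The labelled fibroblast identity was checked against 10 markers, from Col1a1 to Vim and Fn1, and 10 of 10 lay above the median probe set. Their mean log2 level per array was 10.87 to 11.28 in SV5 NN4, 11.78 to 12.16 in SV5 and 11.33 to 11.99 in NIH 3T3. Above the median probe set lay 1 of 6 epithelial markers (Krt5), 0 of 5 endothelial, 2 of 5 white blood cell (Lyz2 and Cd3e), 1 of 5 muscle (Ckm), 1 of 3 fat (Fabp4) and 2 of 4 bone and cartilage markers (Sp7 and Sox9). The means of these lists per array stayed between 4.17 and 5.83, and limma called 0 of their genes in any comparison.

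The arrays differed by replicate number as well as by line, as the plot of levels on each array shows. For Crtap, 92.0% of the variance over the 9 arrays lay between lines and 6.59% between replicate numbers, and for Lox 82.8% and 13.1%. For Serpinh1 the same shares were 0.788% and 79.7%, for P4ha1 8.97% and 76.9%, and for P4ha2 9.56% and 75.9%. Most of the spread of these last 3 genes thus lay between replicate numbers and not between lines. The same held for Plod3 (32.8% between lines and 57.3% between replicate numbers), Pcolce (8.97% and 54.1%) and Plod1 (29.6% and 51.8%). For Loxl1 the shares were 41.9% and 43.1%, and for Plod2 53.0% and 12.9%.

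**Figure D1:**
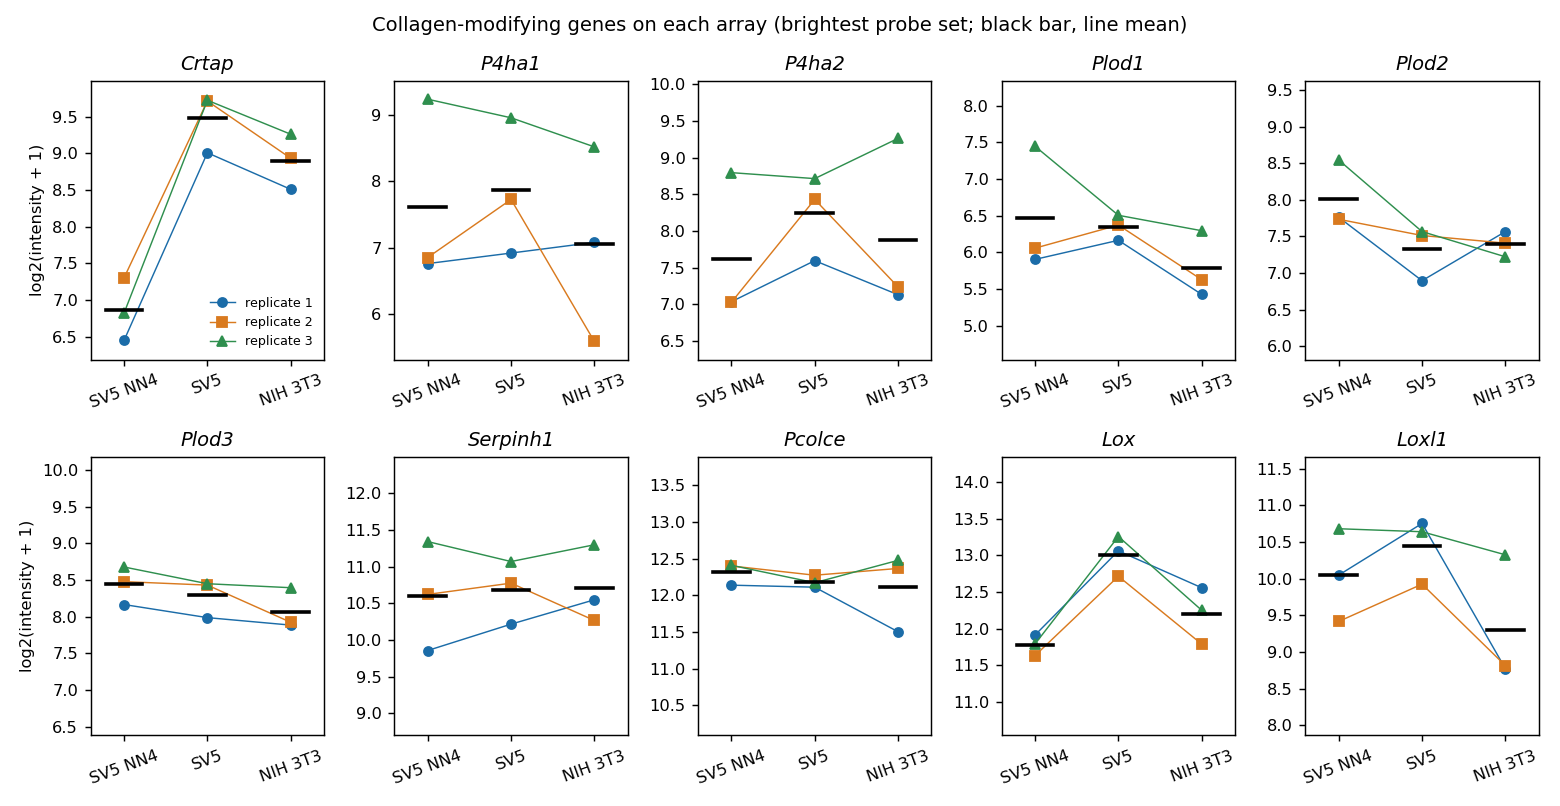
Levels of the 10 genes on the 9 arrays as log2(intensity + 1) at the brightest probe set, with arrays of equal replicate number joined and black bars at the mean of each line. For Crtap the 3 SV5 NN4 arrays, at 86.3 to 156.7 in intensity, lie below the 6 others, and for Lox the 3 SV5 arrays, at 6713 to 9775, lie above the 6 others.

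**Figure D2:**
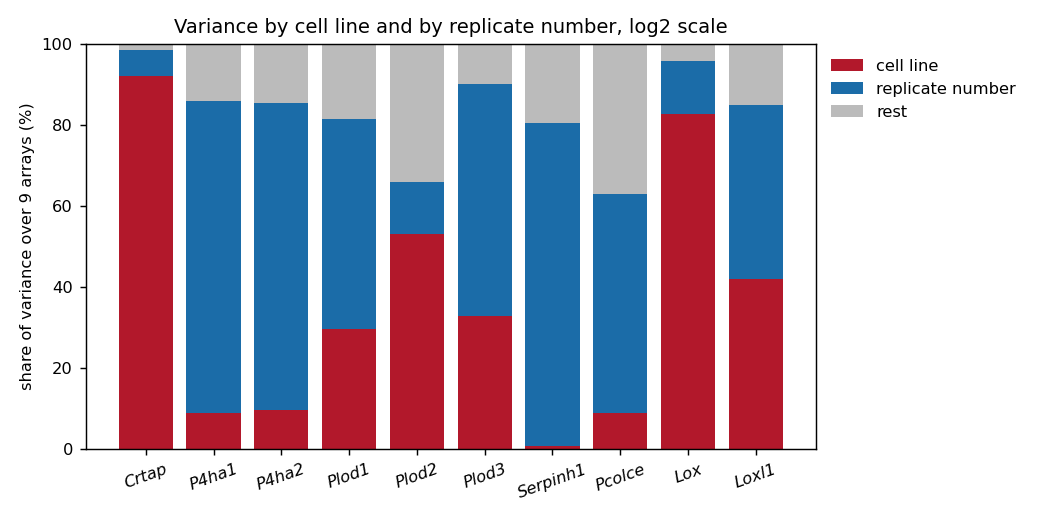
Share of the variance of each gene over the 9 arrays, in percent on the log2 scale, that lies between cell lines, between replicate numbers or in the rest. The line share runs from 0.788% for Serpinh1 to 92.0% for Crtap.

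The prolyl hydroxylation genes came first. Crtap read 86.3, 156.7 and 112.1 in intensity on SV5 NN4 arrays 1, 2 and 3, against 513.5, 838.2 and 844.3 on SV5 arrays and 363.2, 487.6 and 612.1 on NIH 3T3 arrays. Every SV5 NN4 array was below every array of the other lines, while SV5 and NIH 3T3 overlapped. The log2 levels were 6.86 ± 0.43 in SV5 NN4, 9.48 ± 0.41 in SV5 and 8.90 ± 0.38 in NIH 3T3 (SD, n = 3 each). Crtap fell by 2.62 in SV5 NN4 relative to SV5 (SE 0.16, 95% interval -3.01 to -2.24, adjusted p = 0.00188 in limma), with pairs of equal number at -2.56, -2.41 and -2.90. It fell by 2.04 relative to NIH 3T3 (95% interval -2.43 to -1.66, adjusted p = 0.00572), a call that was lost without the replicate block (adjusted p = 0.12) and with only these lines in the fit (adjusted p = 0.0574; 0.00207 to 0.12 over 8 settings). Between SV5 and NIH 3T3 it differed by 0.58 (95% interval 0.19 to 0.97, adjusted p = 0.2), positive in 3 of 3 pairs but not called.

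P4ha1 and P4ha2 encode the catalytic subunits of prolyl 4-hydroxylases. P4ha1 read 107.3, 114.4 and 603.4 in SV5 NN4, 119.9, 210.8 and 496.6 in SV5 and 134.2, 46.9 and 366.1 in NIH 3T3. Array 3 was the highest in each line and the lines overlapped. Its difference between SV5 NN4 and SV5 was -0.25 with an interval of -1.19 to 0.69, which holds changes in either direction. Its other probe set, near the floor with 6 of 9 arrays above it, differed by -0.48. P4ha2 read 130.3, 129.6 and 443.9 in SV5 NN4, 192.6, 344.4 and 419.5 in SV5 and 139.3, 150.0 and 614.0 in NIH 3T3. It differed by -0.63 between SV5 NN4 and SV5 (95% interval -1.35 to 0.09, adjusted p = 0.478), and its pairs, at -0.56, -1.40 and 0.08, did not share a sign.

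The promoters of these 3 genes are printed because their products are subunits of prolyl hydroxylase complexes and only Crtap was called. P4ha1, among other genes, is known to be induced in low oxygen. The sequences are RefSeq's on GRCm38.p6, each from 250 bases before to 50 after the annotated start of the transcript, 5′ to 3′ on the gene's strand. Crtap lies at chr9:114390663-114390962 on the minus strand, P4ha1 at chr10:59323046-59323345 on the plus strand and P4ha2 at chr11:54100674-54100973 on the plus strand. Capitals mark the core that hypoxia-inducible factors bind, ACGTG or GCGTG, on either strand.
Crtap: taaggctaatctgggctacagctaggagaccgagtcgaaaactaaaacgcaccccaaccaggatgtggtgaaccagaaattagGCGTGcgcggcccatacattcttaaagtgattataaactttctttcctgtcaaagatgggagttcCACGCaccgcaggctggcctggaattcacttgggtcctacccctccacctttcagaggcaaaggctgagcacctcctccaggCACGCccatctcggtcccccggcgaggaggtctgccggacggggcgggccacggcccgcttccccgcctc
P4ha1: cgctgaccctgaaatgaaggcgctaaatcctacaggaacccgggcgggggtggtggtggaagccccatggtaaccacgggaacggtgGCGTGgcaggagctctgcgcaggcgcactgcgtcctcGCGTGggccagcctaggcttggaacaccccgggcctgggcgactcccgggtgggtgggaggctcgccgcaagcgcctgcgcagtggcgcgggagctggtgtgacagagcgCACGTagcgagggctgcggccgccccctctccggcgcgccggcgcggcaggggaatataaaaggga
P4ha2: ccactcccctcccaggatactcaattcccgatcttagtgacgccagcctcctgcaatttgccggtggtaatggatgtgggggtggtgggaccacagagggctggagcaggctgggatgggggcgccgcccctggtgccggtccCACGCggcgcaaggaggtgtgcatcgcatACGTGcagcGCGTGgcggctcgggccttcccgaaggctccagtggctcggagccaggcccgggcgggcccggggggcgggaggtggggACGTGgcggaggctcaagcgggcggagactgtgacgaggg

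The Crtap and P4ha1 windows held 3 matches each and that of P4ha2 held 4. Of the 10 genes, 7 had a promoter window, while Plod2, Lox and Loxl1 had none. Among those with a window, 7 of 7 held a match, against 43.8% of all 32851 windows. The windows were not matched for base composition. A match is a string of letters, and binding was not measured. The measured genes of the hypoxia response and its oxygen sensors, 15 of 16 listed, had medians of -0.07 between SV5 NN4 and SV5, -0.05 between SV5 and NIH 3T3 and -0.24 between SV5 NN4 and NIH 3T3, with 0 called by limma in any of them.

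The lysyl hydroxylase genes Plod1, Plod2 and Plod3 were not called in any comparison. Plod2, which encodes the enzyme that acts on the telopeptides at the chain ends, read 216.1, 212.0 and 372.0 in SV5 NN4, 118.2, 181.7 and 188.6 in SV5 and 188.6, 169.0 and 148.4 in NIH 3T3. The 3 SV5 NN4 arrays were above the 6 others. Its second probe set gave 148.9, 256.3 and 442.1 in SV5 NN4 and 60.3, 156.5 and 184.0 in SV5. In NIH 3T3 it gave 106.6, 148.9 and 148.9. At this probe set SV5 NN4 overlapped with SV5 and, at 148.9, with NIH 3T3. The differences of this probe set were 1.09 between SV5 NN4 and SV5 (95% interval 0.52 to 1.65, adjusted p = 0.0989) and 0.94 between SV5 NN4 and NIH 3T3 (95% interval 0.37 to 1.51, adjusted p = 0.112). Both Plod2 probe sets were positive in 3 of 3 pairs in both comparisons. Between SV5 and NIH 3T3 they differed by -0.07 and -0.15, with pairs of mixed sign.

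Plod1, the lysyl hydroxylase of the helical part of the chains, read 58.8, 65.5 and 173.2 in SV5 NN4, 70.6, 81.7 and 89.7 in SV5 and 42.0, 48.4 and 77.4 in NIH 3T3. Its highest value was SV5 NN4 array 3, and the lines overlapped. It differed by 0.69 between SV5 NN4 and NIH 3T3 (adjusted p = 0.209) and by 0.56 between SV5 and NIH 3T3 (adjusted p = 0.352). Plod3, whose product also adds sugars to hydroxylysine, read 286.0 to 408.3 in SV5 NN4, 252.6 to 348.4 in SV5 and 235.3 to 335.5 in NIH 3T3. Its differences were 0.15, 0.22 and 0.37 for SV5 NN4 against SV5, SV5 against NIH 3T3 and SV5 NN4 against NIH 3T3, the last with an interval of 0.07 to 0.68 and an adjusted p of 0.21.

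Serpinh1, the gene of Hsp47, gave no difference between lines beyond the spread of the arrays at its brightest probe set. It read 925.7, 1574 and 2594 in SV5 NN4, 1188, 1751 and 2148 in SV5 and 1496, 1230 and 2517 in NIH 3T3. The difference between SV5 NN4 and SV5 was -0.08 (95% interval -0.60 to 0.44). The 2 Serpinh1 probe sets disagreed on SV5 against NIH 3T3: the brightest differed by -0.02 and the other by 0.65 (95% interval 0.27 to 1.02, adjusted p = 0.163). They disagreed likewise on SV5 NN4 against NIH 3T3, where the brightest differed by -0.10 (95% interval -0.61 to 0.42) and the other by 0.42 (95% interval 0.04 to 0.80, adjusted p = 0.245), positive in 3 of 3 pairs. The name of the brightest carries the suffix _x_at, which Affymetrix gives to probe sets that can also match other transcripts.

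Pcolce encodes an enhancer of the protease that cuts the C-terminal propeptide. It read 4508, 5405 and 5439 in SV5 NN4, 4423, 4953 and 4614 in SV5 and 2902, 5280 and 5700 in NIH 3T3, with NIH 3T3 array 1 the lowest. Its differences were 0.13 between SV5 NN4 and SV5 (95% interval -0.31 to 0.57) and 0.07 between SV5 and NIH 3T3. Without NIH 3T3 array 1 the SV5 to NIH 3T3 difference was -0.17. The second probe set differed by 0.69 between SV5 and NIH 3T3 (adjusted p = 0.212) and by 0.72 between SV5 NN4 and NIH 3T3 (adjusted p = 0.133), positive in 3 of 3 pairs both times.

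Lox was highest in SV5. It read 3851, 3172 and 3541 in SV5 NN4, against 8535, 6713 and 9775 in SV5 and 6023, 3535 and 4868 in NIH 3T3. The 3 SV5 arrays were above the 6 others, and SV5 NN4 and NIH 3T3 overlapped. On the log2 scale the levels were 11.78 ± 0.14 in SV5 NN4, 13.01 ± 0.27 in SV5 and 12.20 ± 0.39 in NIH 3T3 (SD, n = 3 each). Lox fell by 1.23 in SV5 NN4 relative to SV5 (SE 0.15, 95% interval -1.58 to -0.88, adjusted p = 0.0218 in limma), with pairs at -1.15, -1.08 and -1.46. This call was lost without the replicate block (adjusted p = 0.24; 0.00736 to 0.24 over 8 settings) and when any 1 of the 3 arrays of SV5 NN4 or of the 3 of SV5 was left out (adjusted p 0.0793 to 0.185, differences of -1.33 to -1.12).

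A second Lox probe set read 489.8, 596.8 and 658.2 in SV5 NN4, against 1929, 1279 and 4038 in SV5 and 829.4, 886.7 and 558.0 in NIH 3T3. SV5 was again above every other array, array 3 by most, and the difference of -1.90 between SV5 NN4 and SV5 was not called (95% interval -2.81 to -0.98, adjusted p = 0.0832). The dimmest Lox probe set lay near the floor, with 6 of 9 arrays above it, and differed by -0.58 (adjusted p = 0.132). Between SV5 and NIH 3T3 the 3 probe sets differed by 0.81, 1.53 and 0.42 (adjusted p = 0.124, 0.171 and 0.268), each positive in 3 of 3 pairs. Between SV5 NN4 and NIH 3T3 the brightest differed by -0.42 (95% interval -0.77 to -0.07, adjusted p = 0.212).

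Loxl1, whose product crosslinks elastin as well as collagen, read 1059, 683.0 and 1642 in SV5 NN4, 1726, 972.0 and 1596 in SV5 and 436.8, 449.6 and 1283 in NIH 3T3. NIH 3T3 arrays 1 and 2 were the lowest, and array 3 lay among those of the clones. It differed by 1.14 between SV5 and NIH 3T3 (95% interval 0.48 to 1.79, adjusted p = 0.162) and by 0.74 between SV5 NN4 and NIH 3T3 (95% interval 0.09 to 1.40, adjusted p = 0.235), positive in 3 of 3 pairs both times. Between SV5 NN4 and SV5 it differed by -0.39 (95% interval -1.04 to 0.26). Whether Lox and Loxl1 differed in their response was not tested.

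**Figure D3:**
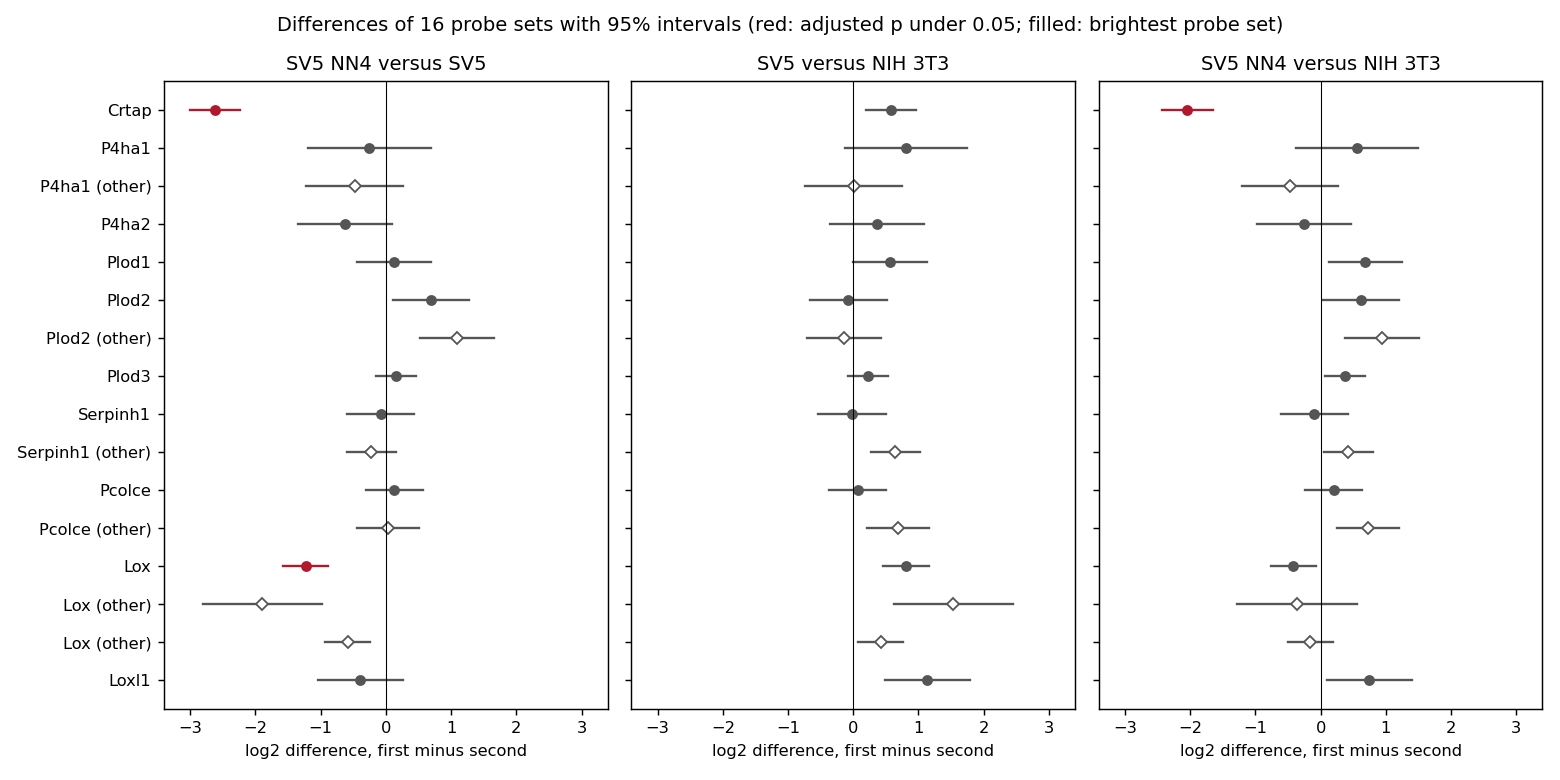
Log2 differences of the 16 probe sets with 95% intervals in the 3 comparisons, the first named line minus the second, from the fit with the replicate block. Red points have an adjusted p under 0.05: Crtap in both comparisons of SV5 NN4, at -2.62 and -2.04, and the brightest Lox probe set against SV5, at -1.23.

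Counted by gene, 2 of the 10 were called between SV5 NN4 and SV5, both lower, where 1.05% of all 12393 genes were called and 0.678% were called lower. Their median difference was -0.17, against 0.01 over all genes, and 6 of 10 lay below 0. At an unadjusted p under 0.05 there were 3 of the 10, Crtap, Lox and Plod2, against 14.6% of all genes. For the same 3 genes the arrays of the lines did not overlap, against 9.06% of all genes. Without the replicate block 1 of the 10 was called, Crtap (adjusted p = 0.0279), against 0.0888% of all genes.

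Between SV5 and NIH 3T3 0 of the 10 were called by limma with or without the block, against 0.0484% of all genes with it. At an unadjusted p under 0.05 there were 3, Crtap, Lox and Loxl1, all higher in SV5, against 15.0% of all genes. Of the 10, 8 lay above 0 with a median of 0.47, against 44.8% of all genes and a median of -0.03. The arrays did not overlap for 1 of the 10, Lox, against 4.58% of all genes.

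Between SV5 NN4 and NIH 3T3 1 of the 10 was called, Crtap, where 1.96% of all genes were called and 0.686% were called lower. Without the block 0 of the 10 were called by limma, against 0.0807% of all genes. At an unadjusted p under 0.05 there were 6 of the 10, of which Crtap and Lox were lower and Plod1, Plod2, Plod3 and Loxl1 higher in SV5 NN4, against 19.4% of all genes. The arrays did not overlap for 2 of the 10, Crtap and Plod2, against 7.11% of all genes. The comparisons share the arrays of a line, so that a high value of Lox in SV5 enters 2 of them with opposite sign.

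Among the other enzymes and chaperones of collagen modification, 8 of 14 listed genes were measured and 0 were called by limma in any comparison. Between SV5 NN4 and SV5, 7 of the 8 lay below 0, with a median of -0.36, where 52.2% of all genes lay above 0. The list median was 0.30 between SV5 and NIH 3T3, with 6 of the 8 above 0, and -0.10 between SV5 NN4 and NIH 3T3. The partners of Crtap in its complex were among the 7 that lay below 0 relative to SV5. P3h1, the prolyl 3-hydroxylase itself, read 6.21 ± 0.02 in SV5 NN4, 6.86 ± 0.13 in SV5 and 6.29 ± 0.39 in NIH 3T3 on the log2 scale (SD, n = 3 each). It differed by -0.65 between SV5 NN4 and SV5 (adjusted p = 0.171). Ppib, the gene of cyclophilin B, differed by -0.28 (adjusted p = 0.594). The largest difference of the list was that of P3h3, another prolyl 3-hydroxylase gene, at -1.34 (adjusted p = 0.265 in limma). P4hb, the shared beta subunit of the prolyl 4-hydroxylases, differed by -0.22 (adjusted p = 0.836), and Loxl4, another lysyl oxidase, by 0.91 (adjusted p = 0.151).

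Procollagen export and propeptide cleavage, with 10 of 14 genes measured, had 0 called by limma in any comparison and a median of -0.35 between SV5 NN4 and SV5. Its median was 0.15 between SV5 and NIH 3T3 and -0.11 between SV5 NN4 and NIH 3T3. The general chaperones of the endoplasmic reticulum, with 15 of 15 measured, had 0 called as well, with medians of -0.05, 0.02 and 0.11 in SV5 NN4 against SV5, SV5 against NIH 3T3 and SV5 NN4 against NIH 3T3. Among the substrates, 4 of 16 collagen chain genes fell in SV5 NN4 relative to SV5, where 0.678% of all genes were called lower, and the list had a median of -0.50 against 0.01 over all genes. Col6a3, a chain of the beaded-filament collagen VI, fell by 2.77 (SE 0.25, adjusted p = 0.00912 in limma), Col6a2 fell by 1.79 and Col6a1 by 1.77. Col3a1, a fibrillar chain, fell by 1.05 (adjusted p = 0.0336). Relative to NIH 3T3, where 0.686% of all genes were called lower, 1 of the 16 was called: Col6a3 fell by 1.37 (adjusted p = 0.0488). Of 12 measured elastic fibre and scaffold genes, 1 was called in each of these comparisons. Postn, whose product periostin binds the protease Bmp1 and supports activation of lysyl oxidase, fell by 3.53 relative to SV5 (adjusted p = 0.0249) and fell by 2.78 relative to NIH 3T3 (adjusted p = 0.0414). Without the replicate block none of these collagen and Postn calls held (adjusted p = 0.172 to 0.899).

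**Figure D4:**
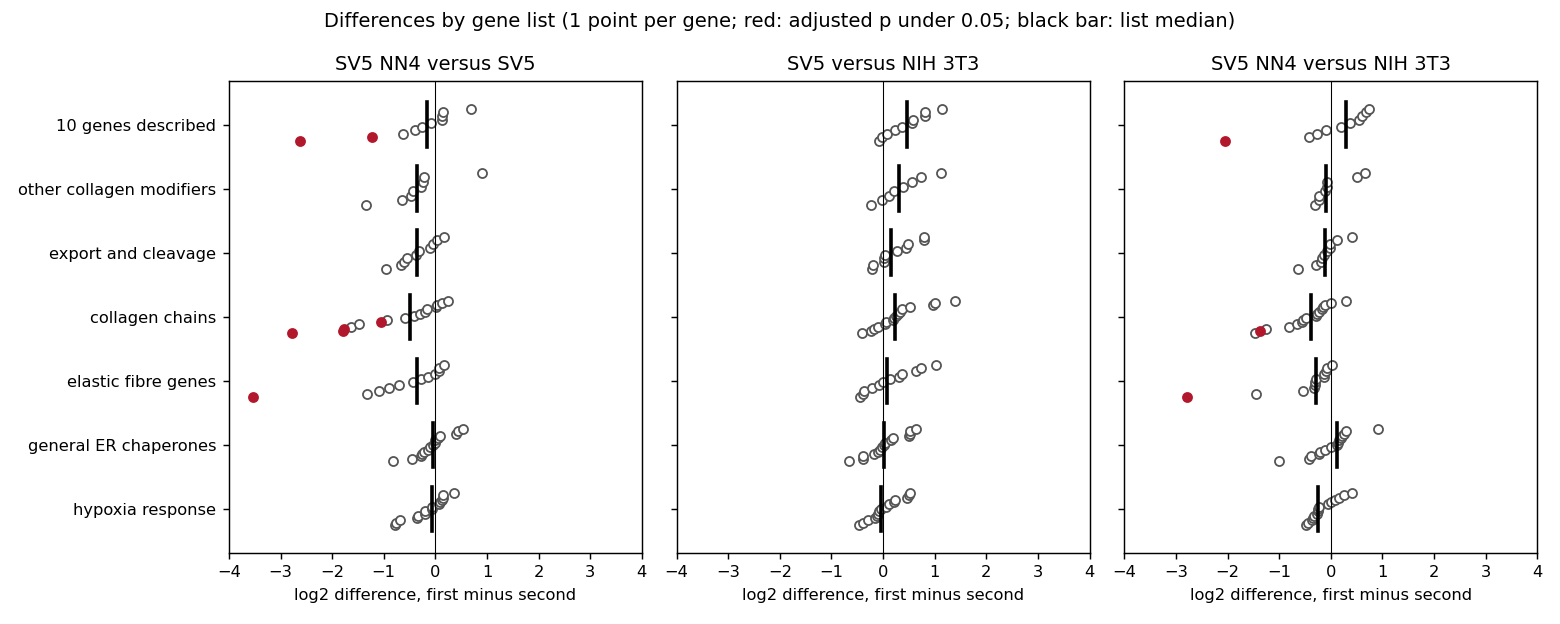
Log2 differences of single genes in the 3 comparisons, by list, with 1 point per gene, red where the adjusted p is under 0.05, and a black bar at the list median. The 10 genes have 2 red points and a median of -0.17 between SV5 NN4 and SV5, and the collagen chains have 4 and a median of -0.50.

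Other measures also differed between SV5 NN4 and SV5, the comparison in which both Crtap and Lox were called lower. Of the 10 fibroblast markers, 9 lay below 0 relative to SV5, with a median of -0.85. The 3 called lower were Col3a1, Pdgfra and Thy1, where 0.678% of all genes were called lower. Col1a1, Col1a2, Col3a1 and Fn1 also belong to the collagen chain and elastic fibre lists above. Vim differed by 0.01 and S100a4 by -0.09 relative to SV5. Pdgfra, a growth factor receptor of fibroblasts, fell by 2.10 (adjusted p = 0.00317, and 0.167 without the replicate block) and Thy1, a surface protein, fell by 1.39 (adjusted p = 0.0056, and 0.0231 without it). Relative to NIH 3T3, 8 of the 10 markers lay below 0 with a median of -0.39, and 2 fell, where 0.686% of all genes were called lower. Thy1 fell by 2.09 there (adjusted p = 0.00178, and 0.00143 without the replicate block) and Pdgfra fell by 1.20 (adjusted p = 0.0217, and 0.659 without it). As a measure of RNA integrity, the 3' probe set exceeded that at the 5' end on the log2 scale by 4.07, 4.63 and 3.66 for Actb in SV5 NN4, against 3.73, 4.32 and 2.42 in SV5 and 4.25, 4.43 and 5.06 in NIH 3T3. For Gapdh the excess was 2.66, 3.52 and 3.05 in SV5 NN4, against 2.45, 3.03 and 2.36 in SV5 and 2.65, 2.99 and 5.21 in NIH 3T3. SV5 NN4 was above SV5 in 3 of 3 pairs for both transcripts. Relative to NIH 3T3 the pairs had mixed signs for both transcripts. The part of these measures in the differences of Crtap and Lox was not tested. In RNA from whole cultures, fewer cells that express a gene and less transcript per cell cannot be told apart.

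After the mean of each replicate number was removed, Crtap and Lox correlated at r = 0.87 over the 9 arrays, which form 3 lines and share their processing. Crtap and Plod2 correlated at r = -0.81. Differences between lines were left in these values. Before the replicate means were removed, 92.0% of the variance of Crtap, 82.8% of that of Lox and 53.0% of that of Plod2 lay between lines. Both r values thus carry the line differences given above and are no separate sign of shared control. The ranking also used r after only the replicate means were removed, over 7142 genes at or above the median level. The 3 genes most like Crtap were the membrane protease gene Mmp14 (r = 0.988), Itm2b (r = 0.986) and Adgra2 (r = 0.986). Those most like Lox were Ap3s1 (r = 0.988), Pcdhb22 (r = 0.987) and the caveolin gene Cav1 (r = 0.980). Those most like Plod2 were the mitotic genes Mastl (r = 0.985) and Kif23 (r = 0.975) and the replication nuclease gene Dna2 (r = 0.970). With 9 arrays and so many genes ranked, values of this size were found for other members too, such as r = 0.997 between Loxl1 and Supv3l1.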

How the data were processed

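Expression was measured on 9 Affymetrix arrays, 3 for each of SV5 NN4, SV5 and NIH 3T3. The values are intensities on a linear scale as the authors deposited them, and per the submitters' processing notes they were made with RMA; the sources used here give neither its version nor its settings. RMA usually gives all arrays 1 distribution of values, which would hide a shift of most transcripts together, but the upper quartiles differ here.

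Groups and replicate numbers came from the sample titles. Probe sets were named from the platform annotation: 20393 had 1 symbol, 691 several and 1606 none, and 0 symbols needed an update against RefSeq genes of GRCm38.p6. Differences of log2(intensity + 1) were fitted in limma 3.58.1 under R 4.3.3 (lmFit and eBayes, all 9 arrays, replicate number as a block) with Benjamini-Hochberg adjustment over all 22690 probe sets. The script was tested on simulated data. Equal-numbered arrays deviated together: r was 0.26 to 0.84 for the 9 equal-numbered pairs from different lines and -0.73 to 0.11 for the other 18. Deviations were taken from line means, so positive values for equal-numbered pairs force negative ones among the others. The second range is therefore no separate sign of pairing. This pairing was read from the arrays, as no label states one. Nothing in the labels says that replicates are separate cultures. The p-values of the main fit measure only the spread among arrays that is left after differences between replicate numbers are removed. For Crtap between SV5 NN4 and SV5 the SE was 0.16 with the replicate block and 0.31 without it. Part of the spread may be technical, and the number of arrays limits the precision.

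All 10 genes are named at every probe set, called or not. Of the 6 pathway lists, counts are given with up to 3 called genes per comparison. Col3a1, P3h1, P3h3, Ppib, P4hb, Loxl4, Pdgfra, Thy1, Vim and S100a4 were given with values after these were seen. For each of the 10 genes the 3 most alike were ranked, and those of Crtap, Lox and Plod2 are given. The 10 genes, the lists and the paired fit were chosen with earlier results of these data known. Alternatives were the fit without the block, another pseudocount, brighter probe sets only, quantile normalization, centring, only the lines compared, an intensity trend, probe sets averaged by gene and each array left out.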

Additional observations from a re-analysis of the deposited data

How the results depend on the processing

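Of the 10 genes, the call of Crtap between SV5 NN4 and SV5 held in all 8 other settings and without each of the 9 arrays (adjusted p 0.000643 to 0.0306). The count of 2 between SV5 NN4 and SV5 was 1 without the replicate block and 1 to 2 with an array left out. The count of 1 between SV5 NN4 and NIH 3T3 was 0 without the replicate block and 0 with only the lines compared, and 1 when any single array was left out. Between SV5 and NIH 3T3 it was 0 in every setting by limma, and 3 genes had an unadjusted p under 0.05 with the block. The cause of these changes was not tested. Over the whole array, 196, 14 and 375 probe sets were called in SV5 NN4 against SV5, SV5 against NIH 3T3 and SV5 NN4 against NIH 3T3. Without the replicate block these were 19, 1 and 18, and with only the lines compared 1504, 0 and 18. For SV5 against NIH 3T3 the count was also 0 with a pseudocount of 16, after quantile normalization and after centring, 6 with an intensity trend and 1 with probe sets averaged by gene. With an array left out the counts ran from 14 to 950, from 0 to 49 and from 13 to 1239. The only directions that turned were of differences that were not called. With its probe sets averaged, Serpinh1 differed by 0.31 between SV5 and NIH 3T3 and by 0.16 between SV5 NN4 and NIH 3T3. With an array left out, the differences between SV5 NN4 and SV5 ran from -0.52 to 0.24 for P4ha1, -0.22 to 0.14 for Serpinh1 and -0.20 to 0.30 for Plod1. Those between SV5 and NIH 3T3 ran from -0.36 to 0.18 for Plod2, -0.26 to 0.21 for Serpinh1, -0.17 to 0.23 for Pcolce and -0.0303 to 0.78 for P4ha2. Those between SV5 NN4 and NIH 3T3 ran from -0.34 to 0.13 for Serpinh1, -0.0428 to 0.36 for Pcolce and -0.48 to 0.0244 for P4ha2. Dim probe sets, such as the dimmest of P4ha1 and of Lox, lay near the floor, where a difference is understated.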
